A study of Mus musculus with 10 samples.

Results

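Somatosensory cortex of 2.5-month-old mice was compared between Nsd1Nex-cKO samples, in which Nsd1 was deleted from postmitotic neurons, and controls. The comparison used 6 of the 10 samples of the series: 3 controls (Nex_Ctrl replicates 1 to 3) and 3 knockouts (Nex_cKO replicates 1 to 3). Nex_Ctrl replicates 1 and 2 had the genotype Nsd1fl/+, and Nex_Ctrl replicate 3 had the genotype Nsd1fl/fl. All 6 samples therefore carried at least 1 conditional (floxed) Nsd1 allele, and the labels leave unsaid whether the controls also carried Cre. Nor do they tie replicates to separate mice, so p-values measure the spread between these samples. Expression was given as FPKM (fragments per kilobase of transcript, relative to each library's mapped fragments) for 23283 gene names or joined loci. Of these, 12528 had at least 1 FPKM in at least 3 of the 6 libraries and were tested.

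NSD1 is a histone methyltransferase that places the dimethyl mark on lysine 36 of histone H3. In mammalian cells this mark helps recruit the DNA methyltransferase DNMT3A and opposes the Polycomb mark on lysine 27 of the same histone. Loss of 1 copy of the human gene causes Sotos syndrome, a disorder of overgrowth and intellectual disability. Nex-Cre is inserted at the Neurod6 locus and acts in excitatory neurons of the cortex and hippocampus soon after they leave the cell cycle. The dissected cortex also holds interneurons, glia and vessel cells in which this Cre is largely inactive. In such bulk tissue, fewer cells of a type and less RNA per cell cannot be told apart.

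Markers of cortical excitatory neurons were abundant: Slc17a7, the vesicular glutamate transporter of these neurons, had 548.3 to 588.7 FPKM in controls and 464.2 to 577.3 FPKM in knockouts, which overlap. The 5 excitatory markers summed to 1384 to 1484 FPKM in controls and 1249 to 1368 FPKM in knockouts, lower in each knockout. At an adjusted p under 0.05 in limma, 1 of the 5 was higher (Neurod2) and 1 lower (Tbr1). Genes with at least 1 FPKM numbered 12177 to 12216 in control libraries and 12487 to 12519 in knockout libraries. Nex_cKO replicate 3 stood apart: it alone expressed the Y-linked gene Ddx3y, and rows without a gene name held 41.6% of its summed FPKM, against 2.33% to 19.4% in the other libraries. The X-linked gene Xist had 0.0035 FPKM in it and 33.6 to 46.5 FPKM in the others. By these genes that sample was male and the others female, so sex was not balanced between the groups. Nsd1 was read only as a locus joined with Prelid1, at 125.1 to 141.4 FPKM in controls and 90.98 to 118.1 FPKM in knockouts (log2 change -0.34, adjusted p = 0.0863 in limma). The joined value does not show how much of either transcript changed. Neurod6 itself had 34.0, 29.4 and 31.5 FPKM in controls and 17.2, 22.2 and 14.6 FPKM in knockouts, and its locus carries the Cre insertion.

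The knockout cortex gained transcripts that control cortex barely had, and lost moderate amounts of transcripts that were already abundant. By limma with Benjamini-Hochberg adjustment over all 12528 genes, 560 genes (4.47%) were higher and 509 (4.06%) were lower, which is 8.53% of genes tested. The words rose and fell stand for an adjusted p under 0.05 in that fit. The level in controls separated the directions. Of 380 tested genes with a control mean under 1 FPKM, 252 rose and 0 fell, but such genes entered the test only if they reached 1 FPKM in the knockout group. The filter thus raises the share of rises in any gene list below that holds many near-silent genes. Between 1 and 5 FPKM, 198 of 3370 genes rose and 64 fell. Between 20 and 100 FPKM the balance was the other way, with 24 of 3098 genes higher and 212 lower. Above 100 FPKM, 0 of 694 genes rose and 35 fell.

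The 252 near-silent genes that rose had a median of 0.392 FPKM in controls and 2.23 FPKM in knockouts, and 31 of them reached a mean of at least 5 FPKM. Only 6 of them were listed at 0 in all 3 control libraries. The 308 higher genes that averaged 1 FPKM or more in controls had a median ratio of knockout to control means of 1.89. The lower genes fell by a median of 28.4% from a median control level of 18.9 FPKM, and 56 of them fell below 0.5 of the control mean. Genes tested as a whole had a median control level of 10.1 FPKM. Both counts moved with scaling. In the fit as given, 52.4% of calls were rises. After median ratio rescaling 607 genes rose and 325 fell, so that rises made up 65.1% of calls. After scaling to an equal sum over named genes 662 rose and 216 fell, which put rises at 75.4% and moved the median log2 change of all genes from -0.04 to 0.06. Without Nex_Ctrl replicate 1, 2 or 3 or Nex_cKO replicate 1, the lower genes numbered 151, 203, 157 and 218. Without Nex_cKO replicate 2, 558 genes rose and 684 fell, the most lower genes of any alternative. Without Nex_cKO replicate 3, 611 genes rose and 562 fell. A core of 373 higher and 104 lower genes kept its call in every alternative that tested it, a fit blocked by replicate number aside. The 6 fits that leave out a library are among those alternatives. Of the core, 135 higher and 89 lower genes were tested in all 14 alternatives other than the blocked fit, and a filter of 5 FPKM left the other 238 and 15 untested. Below, a gene said to hold is in this core. For most other genes at least 1 alternative or left-out library that lost the call is named, though not always all of them.

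**Figure D1:**
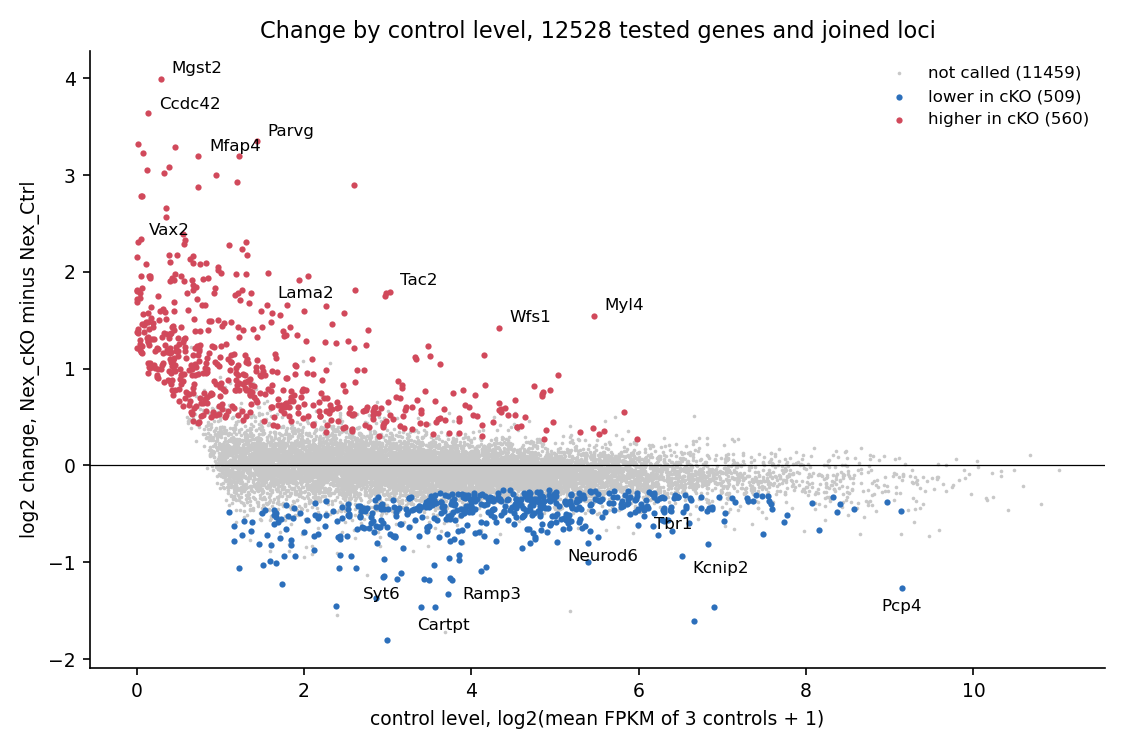
Change against control level for the 12528 tested genes: the horizontal axis is the control mean as log2(FPKM + 1), the vertical axis the log2 change, knockout minus control, and coloured points are genes with adjusted p under 0.05 in limma. Rises cluster at the left, where 252 of 380 genes below 1 FPKM in controls were higher, and falls spread over the middle and right, with 35 of 694 genes above 100 FPKM lower and 0 higher.

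Promoter windows are described by their CG dinucleotides, a main site of DNA methylation. No methylation was read here, and a link of these windows to the mark placed by NSD1 was not tested. Windows were the 250 bases before the RefSeq gene start (build GRCm38.p6), present for 9108 tested genes. Near-silent genes that rose had a median of 5 CG dinucleotides per window (n = 178), and higher genes that averaged 1 FPKM or more had 8 (n = 208). Lower genes had 17 (n = 352) and all tested genes 16. Genes that are low in cortex had CG-poor windows in general: all protein-coding genes with a control mean under 1 FPKM had a median of 3 (n = 6106), and the 146 of them that rose had 5. The letters TATAAA, searched on both strands, stood in 16.3% of windows of near-silent genes that rose and 4.26% of windows of lower genes. They stood in 6.08% of windows of all tested genes and 12.2% of all 16322 windows, untested genes included. Among protein-coding genes with a control mean under 1 FPKM they stood in 21.4% of windows, and in 17.1% of those that rose. The letters GGGCGG, also searched on both strands, stood in 29.2% of windows of near-silent genes that rose and 71.6% of windows of lower genes. They stood in 60.6% of windows of all tested genes and 43.1% of all windows. Among the protein-coding genes under 1 FPKM they stood in 21.5%, and in 32.2% of those that rose.

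Single windows ran from CG-rich to CG-poor, and 120 bases from each of 9 windows are printed to show that range: 6 developmental transcription factors that were near 0 in controls, and the first 3 of the largest rises with a usable RefSeq entry. Each runs 5′ to 3′ on the strand of the gene, with CG dinucleotides in capitals (GRCm38.p6, credited to RefSeq). Barx1 lies at chr13:48662878-48662997 on the plus strand, Pou4f1 at chr14:104468000-104468119 on the minus strand and Pax2 at chr19:44755632-44755751 on the plus strand. Mnx1 lies at chr5:29478471-29478590 on the minus strand, Twist1 at chr12:33957551-33957670 on the plus strand and Nhlh1 at chr1:172057597-172057716 on the minus strand. Mgst2 lies at chr3:51661058-51661177, Parvg at chr15:84324526-84324645 and Lincenc1 at chr13:97434850-97434969, these 3 on the plus strand. None of the 9 stretches overlaps a GENCODE exon. Those of Mgst2 and Parvg lie in introns of the longer gene models, which begin upstream of the RefSeq start, and the other 7 lie upstream of the gene.
Barx1: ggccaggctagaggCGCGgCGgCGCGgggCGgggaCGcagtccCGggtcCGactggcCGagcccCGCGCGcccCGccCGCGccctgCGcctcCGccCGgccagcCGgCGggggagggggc
Pou4f1: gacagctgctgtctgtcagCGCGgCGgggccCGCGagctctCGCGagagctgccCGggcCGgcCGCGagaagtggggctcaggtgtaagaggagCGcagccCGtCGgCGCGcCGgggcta
Pax2: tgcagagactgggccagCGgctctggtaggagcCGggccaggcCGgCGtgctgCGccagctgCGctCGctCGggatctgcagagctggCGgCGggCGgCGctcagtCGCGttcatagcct
Mnx1: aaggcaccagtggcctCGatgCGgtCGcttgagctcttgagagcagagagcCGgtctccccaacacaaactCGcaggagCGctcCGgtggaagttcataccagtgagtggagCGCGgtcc
Twist1: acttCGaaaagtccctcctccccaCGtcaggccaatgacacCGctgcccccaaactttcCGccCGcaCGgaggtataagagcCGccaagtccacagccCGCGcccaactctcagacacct
Nhlh1: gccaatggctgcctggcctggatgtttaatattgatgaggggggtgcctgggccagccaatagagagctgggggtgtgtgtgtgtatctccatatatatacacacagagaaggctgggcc
Mgst2: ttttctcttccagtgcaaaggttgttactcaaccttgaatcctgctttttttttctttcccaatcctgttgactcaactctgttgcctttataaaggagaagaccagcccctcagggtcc
Parvg: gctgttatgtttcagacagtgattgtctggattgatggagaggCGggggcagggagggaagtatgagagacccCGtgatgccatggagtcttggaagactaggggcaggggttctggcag
Lincenc1: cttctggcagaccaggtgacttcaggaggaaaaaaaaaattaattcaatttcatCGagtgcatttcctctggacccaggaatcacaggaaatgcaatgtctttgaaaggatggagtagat
The whole 250-base windows held 47 CG dinucleotides at Pou4f1, 40 at Barx1, 21 at Mnx1, 20 at Pax2 and 18 at Twist1, above the median of 16 over tested genes. Those of Nhlh1, Lincenc1, Parvg and Mgst2 held 2, 3, 4 and 0. Of the 6 factors shown, Nhlh1 alone had a CG-poor window.

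Developmental transcription factors were among the genes that appeared. Homeobox genes encode DNA-binding proteins that pattern the embryo, and most of them are silent in adult cortex. The deposited values covered 210 homeobox genes, of which 49 were tested, 5 rose and 2 fell. All 5 that rose, 10.2% against 4.47% of all genes, had a control mean under 1 FPKM. Pou4f1, a factor of sensory and habenular neurons, had 0, 0.0265 and 0 FPKM in controls and 1.57, 1.71 and 1.76 FPKM in knockouts (log2 change 1.41, SE 0.12, adjusted p = 0.000119). Mnx1, a factor of motor neurons and pancreas, was listed at 0 in all 3 controls and had 1.37, 1.56 and 1.08 FPKM in knockouts (adjusted p = 0.000532). Groups did not overlap at either gene, which was true of 30.4% of all genes tested. Pax2, a factor of the midbrain-hindbrain boundary, eye and kidney, had 0.0418, 0.0587 and 0.0807 FPKM in controls and 1.49, 2.09 and 2.15 FPKM in knockouts (adjusted p = 0.000244). Barx1 and Vax2 were the other homeobox genes that rose, and all 5 hold. Levels remained low: none of the 5 had a mean above that of Vax2, whose libraries had 3.45, 4.198 and 4.57 FPKM.

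The 2 homeobox genes that fell were expressed in control cortex, and their share of 4.08% is at the background of 4.06%. Meis2, a cofactor of HOX proteins expressed in forebrain neurons, had 12.8, 14.1 and 14.2 FPKM in controls and 7.17, 7.78 and 7.55 FPKM in knockouts (log2 change -0.79, SE 0.08, adjusted p = 0.000369) and holds. Tshz2, a zinc-finger homeobox factor, fell with 2.53, 3.27 and 2.82 against 1.97, 1.68 and 1.62 FPKM (adjusted p = 0.0344), a call lost without any 1 of the 6 libraries. Of the 3 tested T-box genes, Tbx1 rose and Tbr1 fell.

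Basic helix-loop-helix factors, many of which start differentiation programmes, are the next family. Of 54 tested, 7 rose (12.96%) and 5 fell (9.26%). Nhlh1, a factor of newborn neurons, had 0.387, 0.723 and 0.318 FPKM in controls and 6.41, 8.47 and 4.21 FPKM in knockouts (log2 change 2.29, SE 0.21, adjusted p = 0.000240). Scx (scleraxis), a factor of tendon, had 2.85, 2.67 and 2.63 against 5.49, 6.95 and 6.18 FPKM (adjusted p = 0.000629). Tcf15 (paraxis), a factor of somites, had 0.602, 0.636 and 1.05 against 1.999, 2.97 and 2.63 FPKM (adjusted p = 0.00390). Nhlh1, Scx, Tcf15, Ascl5 and Twist1 hold, and Twist1, Tcf15 and Scx are all factors of mesodermal tissue.

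The helix-loop-helix genes that fell were expressed in control cortex. Npas2, a partner of the circadian clock, had 12.1, 12.8 and 12.7 FPKM in controls and 8.501, 9.09 and 7.84 FPKM in knockouts (adjusted p = 0.00518). Mycn, a growth regulator, had 5.27, 3.64 and 3.98 against 2.04, 2.46 and 1.98 FPKM (adjusted p = 0.0109). Id3, which binds helix-loop-helix factors and keeps them off DNA, had 26.7, 21.8 and 22.9 against 17.4, 16.7 and 15.1 FPKM (adjusted p = 0.0115). These 3 and Neurod6 hold. Neurod2, a relative of Neurod6 in the same neurons, rose from 45.2, 50.4 and 45.1 to 61.5, 64.7 and 54.7 FPKM (adjusted p = 0.0354), a call that, of the 6 fits that left out a library, only the one without Nex_cKO replicate 3 kept. Hif3a rose as well (adjusted p = 0.0369), and its call was lost in every fit that left out a control or Nex_cKO replicate 1 or 3.

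**Figure D2:**
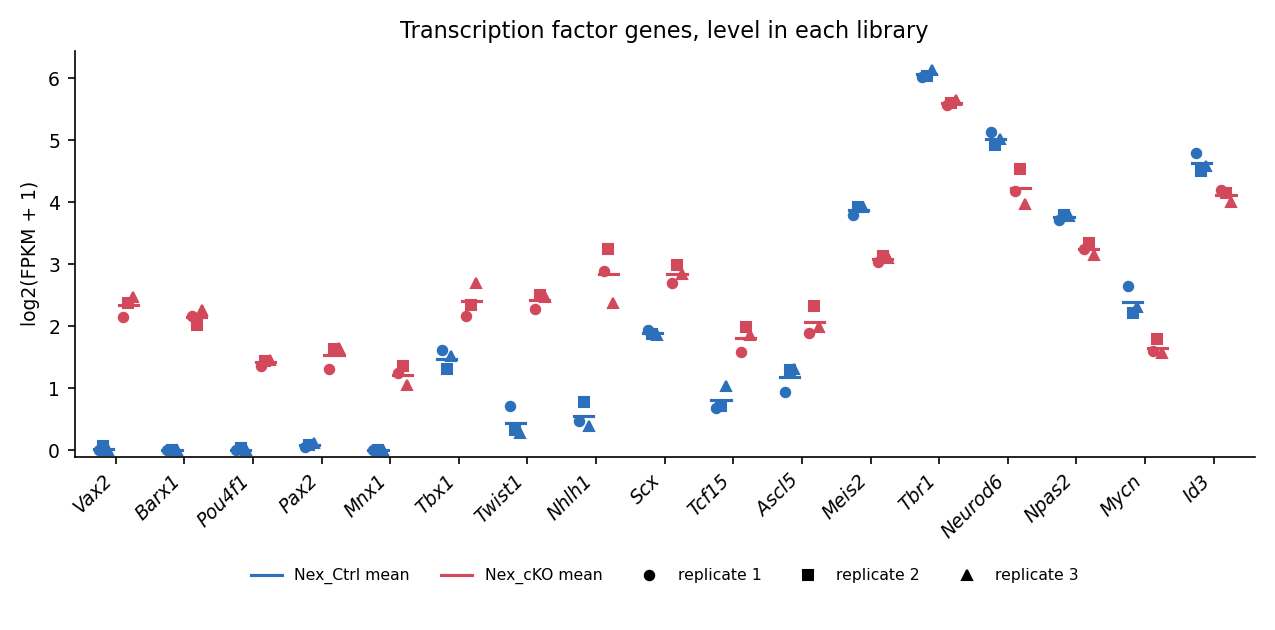
Transcription factor genes in each library: the vertical axis is log2(FPKM + 1), blue symbols are Nex_Ctrl and red symbols Nex_cKO, symbol shapes mark replicates and bars mark means of 3 libraries. The 11 genes on the left (Vax2 to Ascl5) have all knockout values above the control values, and the 6 on the right (Meis2 to Id3) all below.

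The largest rises joined genes of unrelated tissues. The 20 largest, by log2 change among autosomal single-gene names, all hold, and 18 averaged under 1 FPKM in controls. The same 20 genes had 0 to 1.66 FPKM in the 2 control libraries of the 3-month samples of the series, a table made with other gene models. Mgst2 (chromosome 3, 51660360 to 51682677), a microsomal glutathione transferase, had 0, 0.322 and 0.358 FPKM in controls and 18.5, 16.8 and 19.9 FPKM in knockouts. No knockout library was thus near any control, and the ratio of means was 81.2. Aqp6 (chromosome 15, 99601400 to 99605477), an aquaporin of kidney, had 0.128, 0.0640 and 0.0882 FPKM in controls and 8.40, 8.68 and 7.20 FPKM in knockouts (log2 change 3.05, SE 0.11, adjusted p = 1.7e-06). Eps8l2 (chromosome 7, 141338880 to 141363020), an actin regulator of hair cell stereocilia, had 0.879, 1.09 and 0.839 against 14.5, 13.7 and 15.3 FPKM (log2 change 3.00, SE 0.10, adjusted p = 1.07e-06).

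The knockout libraries were close to each other at most of these genes. Tspo2, an erythroid relative of the translocator protein, had 0, 0 and 0.147 FPKM in controls and 5.79, 7.11 and 5.81 FPKM in knockouts (adjusted p = 5.58e-06). The 4 blood markers, all haemoglobin or haem genes, summed to 130.4 to 287 FPKM in controls and 54.2 to 97.4 FPKM in knockouts. The part of blood content in the change of Tspo2 was not tested. Tbxas1, the thromboxane synthase of platelets and macrophages, had 0.0859, 0.0148 and 0 against 3.85, 4.06 and 4.84 FPKM (adjusted p = 1.13e-05). Card10, a scaffold of NF-kappaB signalling, had 0.956, 0.669 and 0.351 against 10.4, 11.1 and 11.7 FPKM (adjusted p = 8.8e-06). Lect1 (chondromodulin), a cartilage glycoprotein, Ces5a, a carboxylesterase, and Dmrtb1, a DM-domain factor of germ cells, were also in the 20, with log2 changes of 2.66, 2.56 and 2.33. Urah, an enzyme of urate breakdown, and Lgals7, a galectin of skin, varied more: Urah had 29.8, 17.3 and 15.5 FPKM in knockouts and 0.754 to 1.76 FPKM in controls, and Lgals7 had 8.88, 15.6 and 7.05 FPKM in knockouts and 0.193 to 0.523 FPKM in controls.

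Among genes with a mean of at least 20 FPKM in knockouts, the largest rises were smaller in ratio. Cmbl, a hydrolase, had 6.61, 4.69 and 4.05 FPKM in controls and 20.8, 19 and 20.7 FPKM in knockouts (log2 change 1.81, SE 0.14, adjusted p = 9.67e-05). Lgals1, a galectin of connective tissue and some neurons, had 7.57, 6.92 and 6.04 against 27.4, 29.7 and 19.8 FPKM (log2 change 1.75, SE 0.15, adjusted p = 0.000135). S100a6 (calcyclin), a calcium-binding protein, had 14.4, 15.8 and 19.9 against 43.6, 41.1 and 30 FPKM (adjusted p = 0.00209). These 3 hold, and their groups did not overlap. Ankrd35 rose from 8.68 to 12.4 FPKM in controls to 16.5 to 29.1 FPKM in knockouts, a call lost without Nex_Ctrl replicate 1.

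Several genes of the contractile apparatus of muscle rose. Of 73 such genes in the deposited values 37 were tested, 12 rose (32.4%) and 2 fell, with a median log2 change of 0.24 against -0.04 over all genes tested, and 8 of the 12 had a control mean under 1 FPKM. Myl4, an atrial and embryonic myosin light chain, was by far the most abundant, with 42.4, 38.3 and 49.2 FPKM in controls and 143, 134 and 109 FPKM in knockouts (log2 change 1.54, SE 0.12, adjusted p = 0.000100). Mylk, the myosin light chain kinase of smooth muscle and other cells, had 3.63, 3.69 and 4.07 against 15.2, 14.8 and 12.3 FPKM (log2 change 1.65, SE 0.10, adjusted p = 2.71e-05). Ryr1, the calcium release channel of skeletal muscle, had 2.52, 2.64 and 3.14 against 8.48, 8.86 and 8.42 FPKM (adjusted p = 6.23e-05). Groups were far apart at all 3 genes. Mylk3, the cardiac kinase of the same family, rose as well, from 1.11, 1.63 and 1.27 to 4.74, 5.50 and 4.29 FPKM.

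Near-silent muscle genes rose to between 1 and 8 FPKM. Actg2, the actin of enteric smooth muscle, had 0.113, 0 and 0 FPKM in controls and 7.81, 7.73 and 3.70 FPKM in knockouts (adjusted p = 0.000123). Myoz1, a Z-disc protein of fast muscle, was listed at 0 in controls and had 2.19, 2.32 and 2.19 FPKM in knockouts. Mb (myoglobin) had 0.0760, 0 and 0.0807 against 1.88, 2.07 and 2.44 FPKM. Cav3 (muscle caveolin), Myh2 and Myh3 (fast and embryonic myosin heavy chains) and Mylpf (a fast light chain) rose with log2 changes of 1.18, 1.16, 1.05 and 0.94. These 11 genes hold, and Des (desmin) rose with a call lost without any 1 control library. The 2 that fell were Actn2, an actinin of muscle and dendritic spines, with 2.09, 2.50 and 2.43 against 0.565, 0.551 and 0.189 FPKM (adjusted p = 0.000865), which holds, and Tnnc1 (slow troponin C), whose call was lost without Nex_Ctrl replicate 1 or 3.

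The 4 markers of skeletal muscle fibres differed among themselves. Mylpf, given above, is in this set and rose. Ckm, the muscle creatine kinase, stayed at or under 0.365 FPKM in all 6 libraries, and Myh4, the main fast myosin, at or under 0.423 FPKM. Acta1, skeletal actin, had 8.90, 8.56 and 10.5 FPKM in controls and 14.5, 15.8 and 10.6 FPKM in knockouts (adjusted p = 0.0689). The summed level of the 4 skeletal muscle markers was 8.83 to 11.1 FPKM in controls and 12.4 to 17.5 FPKM in knockouts, higher in each knockout. Its part in the muscle gene rises was not tested. Markers of mural and leptomeningeal cells, which contain smooth muscle and fibroblasts, summed to 26.4 to 30.2 FPKM in controls and 26.9 to 27.4 FPKM in knockouts, and 0 of the 5 tested changed.

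Some matrix genes rose. Of 23 tested collagens 7 rose (30.4%) and 1 fell, with 4 of the 7 under 1 FPKM in controls. Col17a1, the transmembrane collagen of epidermal hemidesmosomes, had 0.0834, 0.0582 and 0.0397 FPKM in controls and 1.96, 2.21 and 1.65 FPKM in knockouts (log2 change 1.47, SE 0.12, adjusted p = 0.000148). Col28a1, a collagen of peripheral nerve, had 0.339, 0.175 and 0.222 against 3.28, 2.23 and 3.03 FPKM (adjusted p = 0.000168). Col6a2, a chain of microfibrillar collagen VI, was expressed in controls and had 4.65, 4.56 and 4.72 against 8.13, 8.60 and 9.15 FPKM (adjusted p = 0.000615). Those 3 and Col22a1, a collagen of muscle-tendon junctions, hold, with no overlap between groups. Col6a1, Col6a4 and Col9a3 rose and Col15a1 fell with calls that were each lost without Nex_Ctrl replicate 2 or without Nex_Ctrl replicate 3, and for Col6a1 and Col9a3 also without Nex_cKO replicate 1. Col6a1 was lost without Nex_Ctrl replicate 1 too.

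Of 48 tested laminins, fibulins, microfibril and matricellular genes, 6 rose (12.5%) and 2 fell (4.17%), against 4.47% and 4.06% of all genes. Lama2, the laminin chain of muscle and vessel basement membranes, had 1.82, 1.78 and 2.26 FPKM in controls and 7.75, 7.35 and 10.04 FPKM in knockouts (log2 change 1.66, SE 0.13, adjusted p = 9.83e-05). Lama3, the chain of epithelial laminin, had 0.649, 0.715 and 0.652 against 2.79, 2.62 and 3.18 FPKM (adjusted p = 0.000235). Thbs4, a thrombospondin of tendon and astrocytes, had 0.843, 0.472 and 0.718 against 2.61, 2.50 and 2.50 FPKM (adjusted p = 0.000740). These 3 and Mfap4 hold. Matn2 and Lamb3 rose with calls lost without Nex_Ctrl replicate 1 and Nex_Ctrl replicate 3 respectively. Hapln4, which links hyaluronan in perineuronal nets, fell from 63.1, 59.9 and 65.3 to 36.5, 45.04 and 40.4 FPKM (log2 change -0.62, SE 0.09, adjusted p = 0.00267) and holds.

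**Figure D3:**
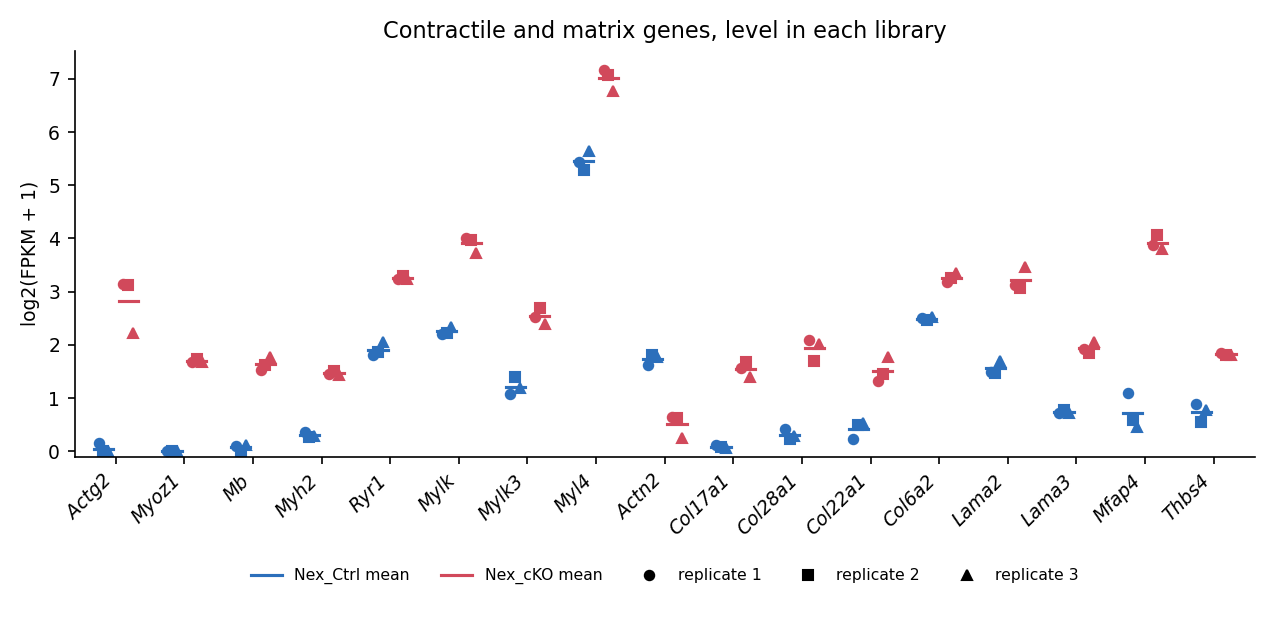
Contractile and matrix genes in each library: the vertical axis is log2(FPKM + 1), blue symbols are Nex_Ctrl and red symbols Nex_cKO, symbol shapes mark replicates and bars mark means of 3 libraries. Actn2 alone among the 17 genes is lower in the knockouts, and Myl4 is the most abundant, at 38.3 to 49.2 FPKM in controls and 109 to 143 FPKM in knockouts.

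Of 71 tested potassium channel subunits 13 fell (18.3%) and 3 rose, and 2 of the 13 falls hold, against 104 of 509 over all genes. Kcnip2 (chromosome 19, 45791839 to 45816061), the auxiliary subunit of A-type channels of the Kv4 family, had 92.9, 87.5 and 92.1 FPKM in controls and 54.4, 45.5 and 41.5 FPKM in knockouts (log2 change -0.94, SE 0.10, adjusted p = 0.000498). Kcng1, a silent subunit that modifies Kv2 channels, had 4.97, 4.23 and 3.85 against 1.58, 1.93 and 1.23 FPKM (log2 change -1.05, SE 0.13, adjusted p = 0.00150). Kcnj16, an inward rectifier of astrocytes, rose from 7.59, 7.58 and 6.84 to 10.2, 11.1 and 10.6 FPKM (adjusted p = 0.00726). These 3 hold. Kcnj6 (GIRK2), a channel opened by G proteins, fell from 14.9, 14.2 and 14.4 to 10.3, 10.99 and 10.5 FPKM (adjusted p = 0.00727), a call kept with any 1 library left out and lost when libraries were scaled to an equal sum over named genes.

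The other lower potassium channel calls were each lost in at least 1 fit that left out a library. The members that fell numbered 5, 4 and 3 with the controls left out in order of number, and 4, 16 and 14 with the knockouts left out likewise. Lower calls over all genes moved the same way, to 151, 203 and 157 and to 218, 684 and 562 in these fits. Kcna1 had 29.1, 30.7 and 29.3 FPKM in controls and 22.0, 23.7 and 23.1 FPKM in knockouts, and its call was lost without Nex_Ctrl replicate 2, Nex_Ctrl replicate 3 or Nex_cKO replicate 1. Kcnn1, a small-conductance calcium-activated channel, had 6.10, 6.69 and 6.91 against 4.51, 4.42 and 3.44 FPKM, a call lost without Nex_Ctrl replicate 2 or 3. Kcng2 fell with a call lost without any 1 control library or Nex_cKO replicate 1, and Kcnk12 without Nex_Ctrl replicate 1, Nex_Ctrl replicate 3 or Nex_cKO replicate 1.

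Of 31 tested sodium and calcium channel subunits 3 rose (9.68%) and 1 fell (3.23%), against 4.47% and 4.06% of all genes. The 3 that rose had control means under 1 FPKM. Cacna1s, the voltage sensor of skeletal muscle, had 0.228, 0.215 and 0.156 FPKM in controls and 2.25, 2.57 and 2.41 FPKM in knockouts (adjusted p = 7.94e-05). Ryr1, its partner in muscle, is given with the contractile genes above. Scn7a, a sodium-sensing channel, rose too, from 0.578, 0.554 and 0.643 to 1.75, 1.40 and 2.24 FPKM. Cacna1i, a T-type calcium channel of neurons, fell from 21.2, 19.1 and 19.6 to 14.1, 14.8 and 13.2 FPKM (adjusted p = 0.00563). Those 3 hold, and Cacng6 was the remaining member that rose (adjusted p = 0.00515), with a call lost under quantile normalization. Without Nex_cKO replicate 2, 3 of the 31 members fell, beside 684 of all 12528 genes.

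Of 45 tested glutamate receptor genes and auxiliary subunits 1 rose (2.22%) and 2 fell (4.44%), against 4.47% and 4.06% of all genes. Grik3, a kainate receptor subunit, had 10.4, 10.8 and 9.66 FPKM in controls and 6.65, 6.98 and 5.44 FPKM in knockouts and holds. Grm4 fell with a call lost without any 1 library but Nex_cKO replicate 2. Olfm4, an olfactomedin counted in this list by family, rose from near 0 and holds. Of 20 GABA-A and glycine receptor subunits 0 rose and 1 fell (5%). It was Gabrd, the subunit of extrasynaptic receptors, which had 59.1, 56.8 and 60.3 against 44.9, 44.5 and 34.7 FPKM (adjusted p = 0.0172), and was not called without any 1 control library. Without Nex_cKO replicate 2, 5 glutamate receptor genes fell, beside 684 of all 12528 genes. Without Nex_cKO replicate 3, 3 GABA-A and glycine receptor genes fell, beside 562 of all genes.

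Receptors for modulators changed in both directions: of 54 tested, 5 rose (9.26%) and 6 fell (11.1%), against 4.47% and 4.06% of all genes. Crhr1, the receptor of corticotropin-releasing hormone, had 14.7, 12.4 and 14.2 FPKM in controls and 7.84, 8.67 and 8.43 FPKM in knockouts (log2 change -0.66, SE 0.09, adjusted p = 0.00203). Adra1b, an alpha-1 adrenoceptor, had 10.6, 13.3 and 16.4 against 7.14, 7.15 and 5.34 FPKM (adjusted p = 0.00761). Adra2a, an alpha-2 adrenoceptor, had 5.96, 3.94 and 4.83 against 2.12, 1.94 and 2.12 FPKM (adjusted p = 0.00287). These genes and the somatostatin receptor Sstr4 fell with groups that did not overlap, and hold. Ramp3, a membrane partner of calcitonin-family receptors and not on that list, was among the 20 largest falls, with 12.6, 13.2 and 12.3 against 6.01, 4.15 and 5.03 FPKM (log2 change -1.19, SE 0.12, adjusted p = 0.000317). Sstr2 and Chrm4 also fell, with calls lost without Nex_Ctrl replicate 1, Nex_Ctrl replicate 2 or Nex_cKO replicate 1, among others.

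The modulatory receptors that rose included receptors barely present in controls. Chrnb3, a nicotinic subunit of midbrain and habenula, had 0.639, 0.714 and 0.828 FPKM in controls and 4.28, 4.501 and 4.55 FPKM in knockouts (log2 change 1.66, SE 0.10, adjusted p = 2.93e-05). Npsr1, the neuropeptide S receptor, had 0.334, 0.270 and 0.252 against 2.10, 1.88 and 1.85 FPKM (adjusted p = 0.000269). Trhr2, a receptor of thyrotropin-releasing hormone, had 3.27, 2.73 and 3.17 against 5.41, 7.16 and 5.37 FPKM (adjusted p = 0.00530). These 3 hold. The serotonin receptors Htr2a and Htr2c rose with calls that were lost without Nex_Ctrl replicate 1 or 3, and for Htr2a also without Nex_cKO replicate 2 and for Htr2c without Nex_Ctrl replicate 2 or Nex_cKO replicate 1.

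Neuropeptide precursor genes split as well, with 4 of 30 tested higher (13.3%) and 2 lower (6.67%), against 4.47% and 4.06% of all genes. Tac2, which encodes neurokinin B, had 7.78, 6.55 and 7.12 FPKM in controls and 29.1, 29.97 and 23.1 FPKM in knockouts (log2 change 1.79, SE 0.11, adjusted p = 2.82e-05). Adcyap1, the precursor of PACAP, had 5.01, 4.52 and 5.70 against 11.9, 15.2 and 12.2 FPKM (log2 change 1.21, SE 0.12, adjusted p = 0.000269). Pdyn, the precursor of dynorphins, had 8.22, 10.9 and 8.62 against 15.3, 15.4 and 14.96 FPKM (adjusted p = 0.00442). These 3 and the lower Cartpt hold. Avp (vasopressin) rose with knockout values as far apart as 1.91, 9.34 and 4.17 FPKM and a call lost without Nex_Ctrl replicate 2 or 3. Pcsk1, an enzyme that cleaves peptide precursors, fell with a call lost without the same libraries. Without Nex_cKO replicate 2, 8 of the 30 precursor genes fell, beside 684 of all 12528 genes.

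**Figure D4:**
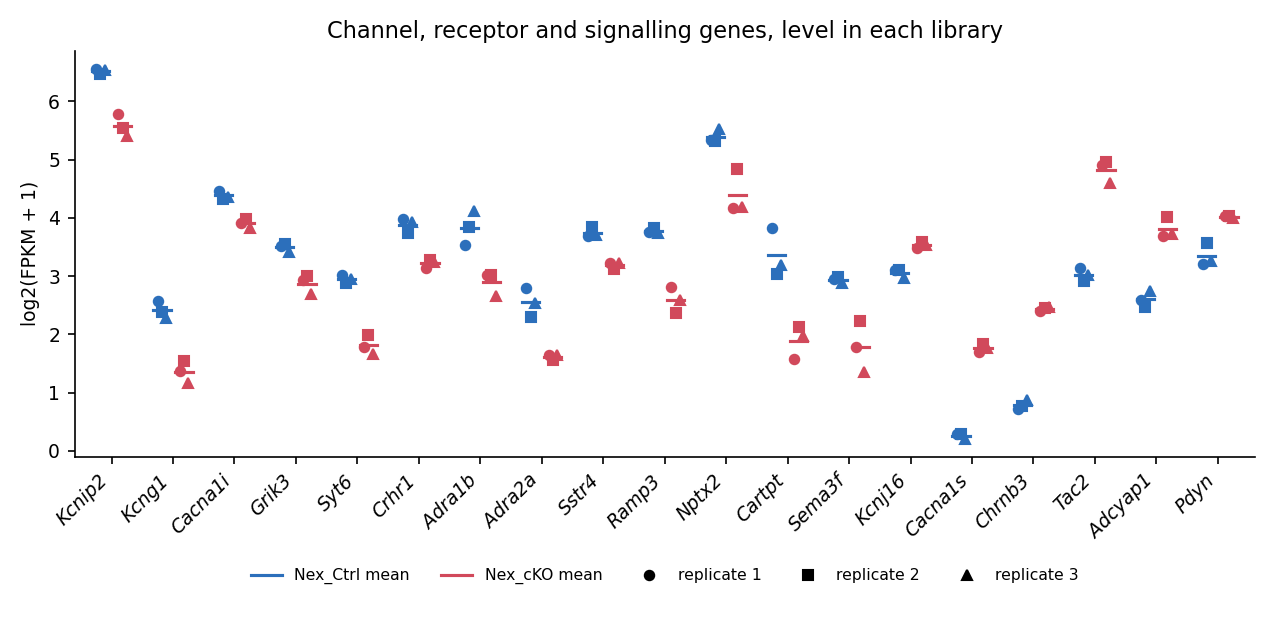
Channel, receptor and signalling genes in each library: the vertical axis is log2(FPKM + 1), blue symbols are Nex_Ctrl and red symbols Nex_cKO, symbol shapes mark replicates and bars mark means of 3 libraries. Genes from Kcnip2 to Sema3f are lower in every knockout library than in any control, and genes from Kcnj16 to Pdyn are higher.

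Of 64 tested vesicle release genes 9 fell (14.1%) and 2 rose, with a median log2 change of -0.07 against -0.04 over all genes. Syt6, a synaptotagmin of layer 6 neurons, had 7.16, 6.42 and 6.73 FPKM in controls and 2.46, 2.97 and 2.16 FPKM in knockouts (log2 change -1.14, SE 0.11, adjusted p = 0.000298) and is the only member of the 11 that holds. Stx1a, the syntaxin of the release complex, had 190, 191 and 196 against 158, 133 and 132 FPKM (adjusted p = 0.0158), a call lost without any 1 control library. Erc2, a scaffold of the release site, had 32.0, 29.3 and 30.2 against 23.1, 23.9 and 24.1 FPKM (adjusted p = 0.0139). The call of Erc2 was lost without Nex_Ctrl replicate 1, Nex_Ctrl replicate 3 or Nex_cKO replicate 1. With the 3 controls and then the 3 knockouts left out in turn, 1, 2, 1, 2, 7 and 8 members fell. Over all genes the same fits gave 151, 203, 157, 218, 684 and 562 lower calls. Synpr (synaptoporin) and Syt17 rose, and the call of Synpr was lost without Nex_Ctrl replicate 3. That of Syt17 was lost without Nex_Ctrl replicate 1 or 2 or Nex_cKO replicate 1 or 3.

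Of 74 tested synaptic adhesion organisers 5 fell (6.76%) and 1 rose (1.35%). Igsf21, a presynaptic organiser of inhibitory synapses, had 44.4, 41.7 and 48.2 FPKM in controls and 24.2, 31.4 and 24.1 FPKM in knockouts (log2 change -0.74, SE 0.11, adjusted p = 0.00370). Adgrl2 (latrophilin 2), an adhesion receptor, had 19.8, 22.5 and 24.2 against 14.3, 15.6 and 15.2 FPKM (adjusted p = 0.00644). Both hold, as does Nptx2. Lgi2 and Nell1 fell with calls lost without Nex_Ctrl replicate 1, and for Nell1 also without Nex_Ctrl replicate 3 or Nex_cKO replicate 1. Of 37 cadherins and non-clustered protocadherins 3 rose (8.11%) and 4 fell (10.8%), against 4.47% and 4.06% of all genes. Pcdh8, an activity-regulated protocadherin, had 9.20, 9.95 and 9.52 against 14.8, 13.5 and 15.9 FPKM (adjusted p = 0.00333), and Cdh4 had 2.09, 2.36 and 2.50 against 3.83, 3.74 and 4.18 FPKM (adjusted p = 0.00927). Both hold with Cdhr2, a cadherin of intestinal brush border. Clstn2 (calsyntenin 2) fell from 23.5, 23.02 and 24.0 to 16.4, 16.9 and 18.1 FPKM (adjusted p = 0.00539), a call lost under the same equal-sum scaling.

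Clustered protocadherins could be read only in part, since 48 of them stood in joined loci. Of 8 tested single genes 2 rose, Pcdhb5 and Pcdhb14, and both calls were lost without any 1 control library. The call of Pcdhb14 was also lost without any 1 knockout library.

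Of 69 tested guidance genes 3 rose (4.35%, near the 4.47% of all genes) and 6 fell (8.70%). Ntn5, a netrin, had 10.3, 9.84 and 10.3 FPKM in controls and 25.3, 27.3 and 23.4 FPKM in knockouts (log2 change 1.24, SE 0.08, adjusted p = 3.25e-05). Sema3f, a secreted semaphorin that repels axons and prunes spines, had 6.75, 6.91 and 6.41 against 2.44, 3.70 and 1.54 FPKM (log2 change -1.15, SE 0.19, adjusted p = 0.00703). Sema4f, a transmembrane semaphorin, had 17.8, 18.1 and 18.5 against 13.7, 13.1 and 12.1 FPKM (adjusted p = 0.00604). These 3 hold, with Efna1 and Sema3b among the higher genes. Efna5, Ephb3, Ntn4 and Sema5b fell with calls that were each lost without Nex_Ctrl replicate 2 and without Nex_Ctrl replicate 3, among other libraries. The members that fell numbered 2 or 3 without any 1 control library, 2 without Nex_cKO replicate 1 and 9 without Nex_cKO replicate 2. In the last of these fits 684 of all 12528 genes fell.

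Secreted signals of development follow. Of 35 tested Wnt pathway genes 4 rose (11.4%) and 3 fell (8.57%), against 4.47% and 4.06% of all genes. Wnt2b had 2.08, 1.51 and 1.52 FPKM in controls and 6.06, 7.32 and 4.18 FPKM in knockouts (log2 change 1.32, SE 0.18, adjusted p = 0.00195). Wnt10a had 11.7, 9.21 and 8.84 against 15.4, 20.7 and 16.7 FPKM (adjusted p = 0.00721). Rspo1, a secreted amplifier of Wnt signals, had 15.3, 15.3 and 15.8 against 26.4, 31.0 and 22.2 FPKM (adjusted p = 0.00419). Rspo3, its relative, rose with adjusted p = 0.00637. Frzb, a secreted Wnt antagonist, fell from 10.2, 10.7 and 11.3 to 6.15, 3.30 and 5.23 FPKM (log2 change -1.03, SE 0.17, adjusted p = 0.00635). Those 5 hold. The 35 tested members had a median log2 change of 0.03, with 18 positive and 17 negative, so the list had no common direction. Wnt6, a ligand, also fell, and its call was lost without Nex_Ctrl replicate 1 or 3. The receptor Fzd9 fell as well, with a call lost without any 1 control library, Nex_cKO replicate 1 or Nex_cKO replicate 3.

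Of 48 TGF-beta and BMP family genes 5 rose (10.4%) and 2 fell (4.17%), against 4.47% and 4.06% of all genes. Acvrl1 (ALK1), a BMP receptor of endothelium, had 2.55, 2.16 and 2.35 FPKM in controls and 8.26, 7.90 and 7.15 FPKM in knockouts (log2 change 1.39, SE 0.10, adjusted p = 5.8e-05). The 5 endothelial markers summed to 75.5 to 90.6 FPKM in controls and 59.7 to 71.3 FPKM in knockouts. Of the 5, 1 was called, Cldn5, which was lower. The part of endothelial content in the change of Acvrl1 was not tested. The ligands Bmp5 and Inhbe rose from under 1 FPKM, with adjusted p of 0.00369 and 0.00176 in limma. Those 3 hold. Acvr2a and Chrd rose and Smad7 fell with calls lost without any 1 control library, and the call of Fst, a lower antagonist, was lost without Nex_Ctrl replicate 1.

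Of 52 growth factor genes of the FGF, IGF, PDGF, VEGF and neurotrophin families 3 rose and 2 fell. Those shares, 5.77% and 3.85%, are near the 4.47% and 4.06% of all genes. Fgf1 had 12.6, 12.7 and 12.97 FPKM in controls and 21.7, 21.7 and 22.9 FPKM in knockouts (log2 change 0.75, SE 0.07, adjusted p = 0.000205). Hgf, the ligand of the MET receptor, had 2.63, 2.60 and 2.15 against 5.45, 4.24 and 6.98 FPKM (adjusted p = 0.00736). Both hold. Without Nex_cKO replicate 2, 7 of the 52 members fell, beside 684 of all 12528 genes. Nrtn rose and Fgf10 fell with calls lost without any 1 control library, and the call of the lower Pdgfa was lost without Nex_Ctrl replicate 1, Nex_Ctrl replicate 3 or Nex_cKO replicate 1. Of 22 Notch pathway genes 1 rose (4.5%) and 2 fell (9.09%). Dlk2, a membrane protein related to Notch ligands, had 28.1, 22.9 and 27.6 against 14.2, 16.8 and 14.9 FPKM (log2 change -0.74, SE 0.10, adjusted p = 0.00205), and Mfng, which glycosylates Notch, had 1.34, 1.61 and 1.43 against 3.75, 3.64 and 2.57 FPKM (adjusted p = 0.00703). Both hold, and the lower call of Dll1 was lost without any 1 of the 6 libraries. Of 19 retinoid genes 1 rose (5.26%), the retinol transporter gene Stra6, with a call lost in 5 of the 6 fits that left out a library.

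Enzymes of oxidation and conjugation rose in a few families. Of 50 tested glutathione transferase, aldehyde oxidase, cytochrome P450 and related genes, 7 rose (14%) and 2 fell. Aox1, an aldehyde oxidase, had 1.42, 1.39 and 1.44 FPKM in controls and 4.001, 3.43 and 3.54 FPKM in knockouts (adjusted p = 0.000567), and Aox4 had 0.181, 0.184 and 0.201 against 1.30, 1.15 and 1.30 FPKM (adjusted p = 0.00144). Fmo5, a flavin-containing monooxygenase of liver, had 0.642, 0.590 and 0.634 against 2.77, 2.52 and 3.05 FPKM (log2 change 1.22, SE 0.11, adjusted p = 0.000217). Within the glutathione transferases, Gstm7 rose from 6.90, 7.99 and 8.79 to 13.4, 12.2 and 14.5 FPKM, and Gstm4 fell from 4.78, 4.504 and 4.80 to 2.74, 1.89 and 2.73 FPKM. Gstm genes are near-identical neighbours, so the share of reads between these 2 is uncertain. Mgst2, Aox1, Aox4, Fmo5, Cyp4f17, Gstm7 and Gstm4 hold. Hpgds rose and Ephx4 fell with calls lost without Nex_Ctrl replicate 1 or 3, among others for Hpgds.

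The largest falls were shallower than the largest rises. Brinp3, a neuronal protein of the BMP and retinoic acid inducible family, had 16.3, 16.0 and 19.1 FPKM in controls and 7.29, 7.10 and 8.81 FPKM in knockouts (log2 change -1.05, SE 0.10, adjusted p = 0.000344). Cthrc1, a secreted collagen-repeat protein, had 8.92, 6.31 and 7.62 against 2.22, 2.82 and 3.38 FPKM (log2 change -1.18, SE 0.15, adjusted p = 0.00143). Dnajc21, a chaperone of ribosome assembly, was the most even, with 25.0, 24.5 and 25.4 against 13.9, 13.8 and 13.9 FPKM (log2 change -0.81, SE 0.06, adjusted p = 0.000102). These 3 hold. Sox18, a factor of vessel endothelium, also fell and holds, with 8.60, 6.24 and 8.92 against 2.93, 4.35 and 2.24 FPKM, beside the lower endothelial marker sums given above, whose part in this fall was not tested.

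Pcp4, a calmodulin-binding peptide abundant in deep layers, showed the largest loss in level: 566, 552 and 586 FPKM in controls and 268, 332 and 148 FPKM in knockouts (log2 change -1.26, SE 0.25, adjusted p = 0.0154). The groups did not overlap, but the knockouts were spread widely, and the call was lost without any 1 control library. Vstm2l and Hs3st2 fell with calls lost without Nex_Ctrl replicate 1 or 3, and Hs3st2 also without Nex_Ctrl replicate 2 or Nex_cKO replicate 1.

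The chromatin machinery itself changed at few genes. Of 12 tested writers and erasers of lysine 36 methylation 0 rose and 0 fell (at an unadjusted p under 0.05, 0 rose and 1 fell). Ash1l, another dimethyltransferase of lysine 36, had 12.9, 14.9 and 13.2 FPKM in controls and 14.5, 14.4 and 18.8 FPKM in knockouts, which overlap (log2 change 0.20, SE 0.11, adjusted p = 0.337). Of 26 tested Polycomb genes 0 rose and 0 fell (at an unadjusted p under 0.05, 3 rose and 4 fell), and Ezh2, the lysine 27 methyltransferase, had a log2 change of -0.11 (adjusted p = 0.642). Of 17 DNA methylation genes 1 fell (5.88%, against 4.06% of all genes). It was Gadd45a, a stress-induced gene linked to DNA demethylation, with 18.1, 10.6 and 8.48 against 5.26, 5.07 and 3.98 FPKM (log2 change -1.16, SE 0.23, adjusted p = 0.0154), kept with any 1 library left out. Dnmt3a and the gene of the lysine 36 trimethylating enzyme, Setd2, were read only in loci joined with a neighbour. A p above the threshold does not show that these genes did not differ.

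The remaining lists held few genes that changed. Of 42 imprinted genes 2 rose (Nnat and Htr2a), or 4.76% against 4.47% of all genes, and 0 fell. Both calls were lost without Nex_Ctrl replicate 1 or 3. The call of Nnat was also lost without Nex_Ctrl replicate 2 or Nex_cKO replicate 1 or 2. Of 35 antigen-presentation and interferon genes 2 rose (5.71%) and 0 fell. Ifih1, a sensor of double-stranded RNA, had 1.03, 1.04 and 0.850 FPKM in controls and 1.54, 2.13 and 2.46 FPKM in knockouts (adjusted p = 0.0294). Its call was lost without any 1 control library or Nex_cKO replicate 2 or 3. Of 42 complement, Fc receptor and lysosomal genes of microglia 5 rose (11.9%) and 0 fell. Trem2, a lipid receptor of microglia, had 12.1, 11.4 and 11.7 against 19.5, 17.8 and 16.9 FPKM (log2 change 0.58, SE 0.08, adjusted p = 0.00205), and alone of the 5 holds. The 5 microglial markers summed to 87.6 to 106.9 FPKM in controls and 102.9 to 110.1 FPKM in knockouts, and 0 of them were called. The part of microglial number or state in these rises was not tested. Of 70 cytosolic ribosomal protein genes 0 rose and 1 fell (Rps20, lost without any 1 control library or Nex_cKO replicate 1), and their median log2 change was -0.19. When Nex_cKO replicate 2 was left out, 12 of the 70 ribosomal protein genes fell, beside 684 of all 12528 genes.

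**Figure D5:**
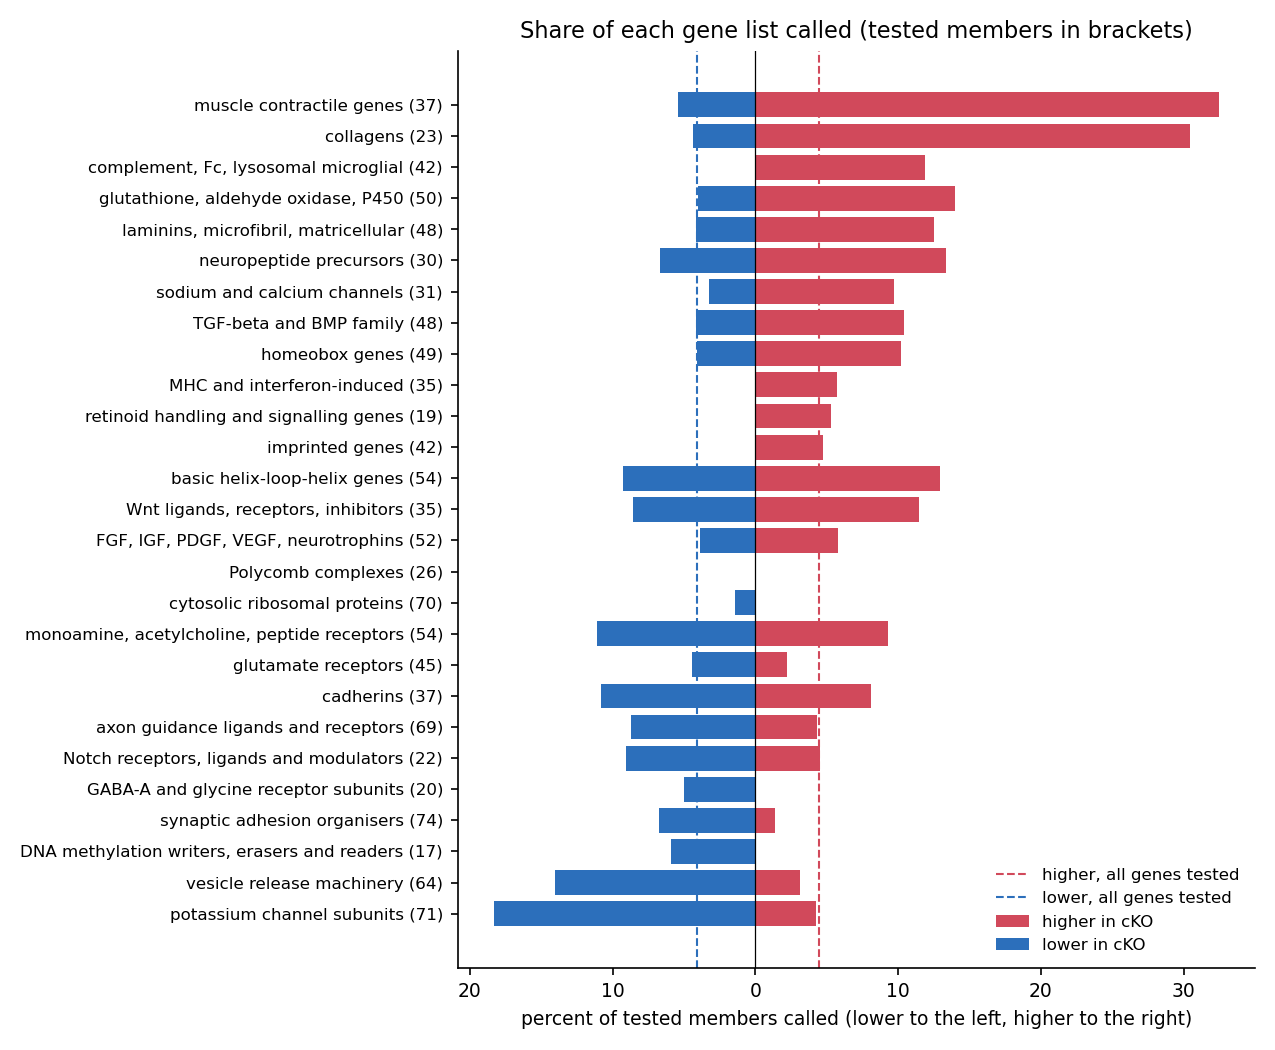
Share of tested members called in each list with at least 15 tested members: the horizontal axis is the percent higher or lower in the knockouts at adjusted p under 0.05 in limma, beside the 4.47% and 4.06% of all genes tested. Muscle contractile genes (12 of 37) and collagens (7 of 23) have the largest higher shares, and potassium channel subunits (13 of 71) and vesicle release genes (9 of 64) the largest lower shares. Of these rises, 8 muscle genes and 4 collagens averaged under 1 FPKM in controls, where genes entered the test only by reaching 1 FPKM in the knockout group.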

How the data were processed

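RNA of 6 somatosensory cortex samples was read from the 2.5-month table of FPKM values deposited by the authors. Tools listed in the submitters' processing notes, without role or order, are Cufflinks 2.2.1, DESeq2, STAR and cutadapt, with the builds mm10 and GRCm38. The table gives no read counts, so depth is unknown and no interval or floor is given. Of 29610 rows, 4463 had no gene name, 1864 repeated a name (the row of highest mean was kept) and 1078 joined several genes. Genes with at least 1 FPKM in at least 3 libraries were tested as log2(FPKM + 1) in limma 3.58.1 under R 4.3.3 (lmFit, eBayes with an intensity trend; two-sided, Benjamini-Hochberg over 12528 genes, threshold 0.05). The pseudocount of 1 understates changes of low genes. The fit was tested on simulated data. Positions are those of the 3-month table of the series (GRCm38, 21312 names matched directly and 554 by synonym), and promoters those of RefSeq.

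Named genes were the targeted and Cre loci, the 20 largest changes and 10 largest changes of abundant genes in each direction, and up to 8 called members per direction of 30 gene lists; other list members are given as values, and neighbouring genes in the closing section were chosen after their values were seen. A few genes are not reported here. The members and lists were chosen with earlier results of these data known. Same-numbered control and knockout samples did not deviate together (r = 0.0167, -0.104 and -0.0956), so replicates were not paired. Alternatives were leaving out each library, 3 other scalings (quantile, median ratio, equal sum over named genes), a fit blocked by replicate number, a smaller pseudocount of 0.1, a filter of 5 FPKM or none, no trend and robust moderation.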

Additional observations from a re-analysis of the deposited data

Results flagged for a closer look

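In Nex_cKO replicate 3, 41.55% of all FPKM lay in rows without a gene name, which no comparison used, against 2.33% to 19.4% in the 3 control libraries and 7.19% and 9.45% in the other 2 knockout libraries. The largest single unnamed row of that library had 196860 FPKM. Without Nex_cKO replicate 3, 611 genes rose and 562 fell. Of the lower genes, 287 had their lowest knockout value in Nex_cKO replicate 3, against 126 in Nex_cKO replicate 1 and 96 in Nex_cKO replicate 2. Of the higher genes, 191 had their highest knockout value in it, against 171 and 198. The part of this library's unnamed signal in the calls was not tested further.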

How the results depend on the processing

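The higher genes numbered 523 to 662 under a pseudocount of 0.1, the 3 other scalings, no trend and robust moderation, and 757 without a filter. A filter of 5 FPKM, which tests fewer genes, left 197. The lower genes fell to 325 under median ratio rescaling and 216 under equal sums over named genes; the cause was not tested. Leaving out a library gave 417 to 611 higher and 151 to 684 lower genes. With the replicate number as a block, although the numbers do not pair the samples, 497 genes rose and 272 fell. Camk2a changed sign under quantile normalization (log2 change 0.003868). Of 198 named genes, 118 kept their side of the threshold in every alternative that tested them, the block aside: 70 in all 14 and 48 in 13, since the filter of 5 FPKM did not test them. The FPKM table limits what can be said of low genes, since their counting error is unknown, and 3 libraries per group limit the detection of small changes.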

Other observations

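Long noncoding RNAs were prominent among the genes that rose. Of 107 tested lincRNA genes 33 rose (30.8%) and 4 fell, and of 81 processed transcripts 10 rose and 3 fell. Of 11187 protein-coding genes 463 rose and 463 fell. Low-level classes enter the test more often through a rise, as described above for near-silent genes.

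Some genes that rose were neighbours, named here after their values were seen. Of 517 higher genes with a position 90 stood next to another higher gene in the order of tested genes, in 42 runs of at most 3 genes, and of 475 lower genes 45 did so in 22 runs. Ftcd, Col6a2 and Col6a1 formed a run on chromosome 10 (76575648 to 76726168), Pik3r5, Pik3r6 and Ccdc42 on chromosome 11 (68432121 to 68597966), and Vwa5b1, Pla2g2f and Pla2g5 on chromosome 4 (138565360 to 138863482). How many such runs gene order alone would give was not tested. The span of the higher genes had a median of 24.5 kb, that of the lower genes 27.6 kb and that of all tested genes 26.8 kb.

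Of 424 X-linked genes 11 rose and 9 fell, and without Nex_cKO replicate 3, 12 rose and 9 fell. Markers of choroid plexus (Ttr, Folr1, Kl and Aqp1) summed to 1.27 to 1.47 FPKM in controls and 2.84 to 4.92 FPKM in knockouts, with 1 of the 4 passing the filter and 0 called. The 5 oligodendrocyte markers summed to 1252 to 1351 FPKM in controls and 952 to 1155 FPKM in knockouts, with 0 called.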
